A study of Homo sapiens with 12 samples.

Results

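Line 1 is the first of 2 HKDC1 knockout lines whose parent is PLC/PRF/5, a human hepatoma line with integrated hepatitis B virus. By their titles its 4 libraries are 2 knockout libraries (KO1) and 2 libraries of the same line labelled as rescued (KO1_RES), and they were set against the 4 libraries labelled control, so that 8 of the 12 libraries of the series entered the comparison. The question taken up is which genes differed from control in the knockout and in the rescue of line 1 alike. The second line, with its own knockout (KO2) and rescue (KO2_RES) libraries, is used only to show where line 1 differed.

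By the genotype field, controls are wild type (WT) and line libraries are HKDC1 knockouts or rescued knockouts, all of them epithelial cells. That field goes against the title for KO1_2, which it gives as rescued, and for KO1_RES_1, which it gives as knockout, so knockout and rescue of line 1 rest on the titles. The labels do not say how the knockout was made, whether a line is 1 clone, by what vector HKDC1 was put back, whether libraries came from separate cultures, or under which oxygen the cells grew. The p-values thus reflect no more than how these samples scatter, and that scatter may be technical. RNA was sequenced with a stranded mRNA kit, and reads on annotated genes came to between 36075411 and 63732831 per line 1 library and between 57333288 and 71853616 per control library. Of 13 markers of liver and hepatoma cells, 12 averaged at least 1 CPM (library-scaled counts, with all libraries brought to the same total) in line 1 and all 13 did in control. The exception in line 1 was the thyroxine carrier TTR.

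HKDC1 encodes a hexokinase domain protein related to the hexokinases that phosphorylate glucose and trap it in the cell. Hepatoma cells keep part of the hepatocyte programme, in which factors such as HNF4A drive the secretion of plasma proteins and the uptake of drugs and bile acids. Epithelial cells are held together by cadherin junctions, where beta-catenin is bound, and by desmosomes, in which desmogleins and desmocollins of neighbouring cells pair.

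HKDC1 itself (ENSG00000156510.11, chromosome 10) was at the control level in the knockout libraries of line 1 and far above it in the rescue libraries. It stood at 1240 and 1544 CPM in KO1_RES, at 153.4 and 146.1 CPM in KO1, and at 156.6, 154.4, 183.5 and 123.6 CPM in control. The KO1 values lay within the control range, and the KO1_RES mean of 1392 CPM was 9.01 times the control mean. By edgeR's quasi-likelihood test with Benjamini-Hochberg adjustment, the log2 fold change was 3.17 for KO1_RES (adjusted p = 1.63e-05) and -0.05 for KO1 (SE 0.23, adjusted p = 0.92). An RNA level does not show whether protein was lost. Among the other hexokinases, HK1 stood at 21.4 ± 1.71 CPM in line 1 and 22.5 ± 3.74 CPM in control (SD, n = 4 each; adjusted p = 0.753). HK2, the hexokinase of many tumours, stood at 4.25 and 7.89 CPM in KO1_RES, at 15.8 and 22.4 CPM in KO1, and at 6.81 to 11.2 CPM in control. The KO1 libraries lay above every control for HK2 (log2 1.0, adjusted p = 0.0316), and the KO1_RES libraries did not pass (log2 -0.65, adjusted p = 0.165). HK3 was too low to be tested, at no more than 0.107 CPM in any of the 8 libraries.

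**Figure D1:**
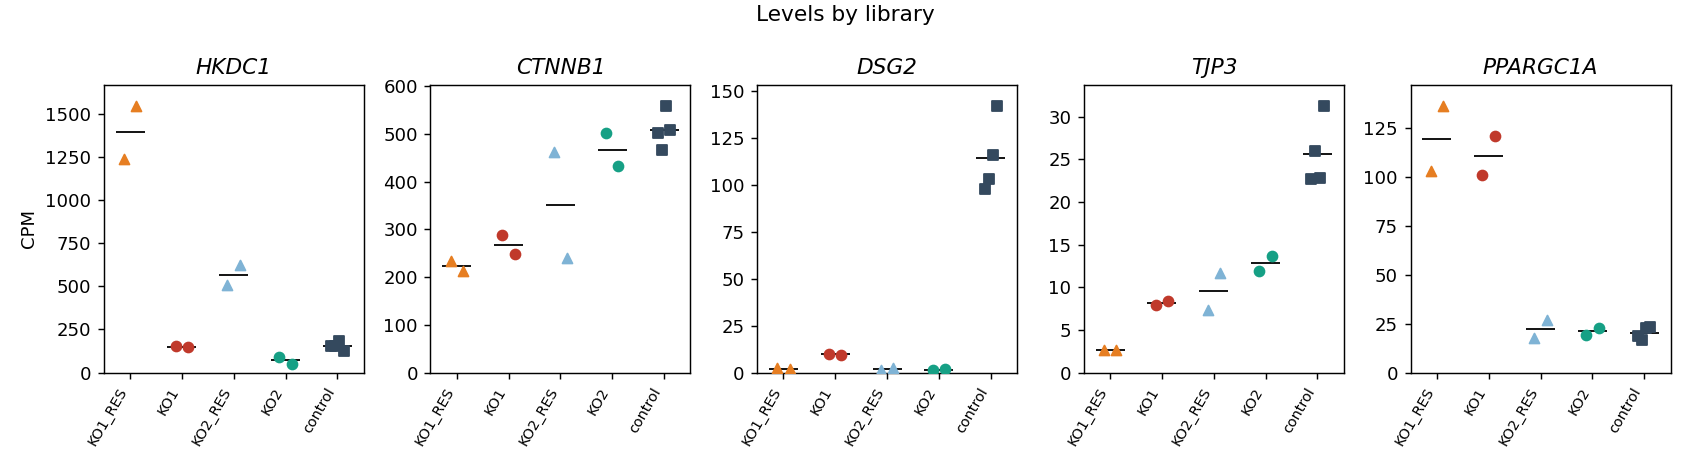
CPM (linear axis) of 5 genes in each library, with the group mean as a bar, for KO1_RES, KO1, KO2_RES, KO2 and control. HKDC1 is high in rescue libraries only, CTNNB1 lies between 213.5 and 288.8 CPM in all line 1 libraries against 465.6 to 558.2 CPM in control, DSG2 and TJP3 are lower in KO1_RES than in KO1, and PPARGC1A is high in all 4 line 1 libraries.

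Across the transcriptome the knockout and rescue libraries of line 1 lay close together and far from control. Of 20559 genes tested, 3721 (18.1%) were called in KO1 against control and 3741 (18.2%) in KO1_RES against control, where called means an adjusted p under 0.05 in edgeR's quasi-likelihood test. A gene was called alike when it was called in both with the same sign. There were 2623 such genes (12.8%), 1122 higher (5.46%) and 1501 lower (7.3%) in line 1. Both comparisons use the same 4 controls and so are not independent. KO1_RES against KO1 gave 40 calls (0.195%), and 1336 genes had an unadjusted p under 0.05 there. For 2621 of the 2623 genes the 4 line 1 libraries lay wholly on one side of the 4 controls, which was so for 6333 of all genes tested (30.8%). A fitted change of at least 1 on the log2 scale was found for 450 higher and 892 lower genes. The median of all genes tested was -0.02. In 3 genes, all chosen after their values were seen, the calls had opposite signs: SYT13, SLCO4A1 and AL590004.3 were above control in KO1 and below it in KO1_RES.

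Controls 1 and 2 stood apart from controls 3 and 4, which bears on every value below. Across genes, log2 CPM correlated at 0.992 within controls 1 and 2, at 0.987 within controls 3 and 4 and at 0.958 to 0.96 between the pairs, at 0.976 to 0.984 among line 1 libraries, and at 0.932 to 0.953 between line 1 and control (genes are not independent replicates). Against each pair of controls alone, 1573 of the 2623 genes were called alike in the same direction both times, 641 higher and 932 lower. None had fold changes of opposite sign against the 2 pairs. That was nearly fixed in advance, since in 2621 of them the line 1 libraries lay on one side of all 4 controls. Unless a sentence says otherwise, the single genes named below are among the 1573.

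The most even feature of line 1 lay along the chromosomes: chromosome 8 was lower nearly throughout. The median log2 fold change of its 694 tested genes was -0.56, and it was -0.55 in KO1, -0.56 in KO1_RES, -0.56 against controls 1 and 2 and -0.54 against controls 3 and 4. Line 2 had a median of -0.07 there. Of these genes 212 were called alike lower (30.6%) and 6 higher (0.865%), so that chromosome 8 held 14.1% of the alike lower genes and 3.38% of the genes tested. When protein-coding genes averaging at least 1 CPM were put in blocks of 25 neighbours, 17 of 17 blocks of chromosome 8 had a median at or under -0.4 in line 1, and 0 of 17 had one in line 2. The first 4 blocks, from FBXO25 to UBXN8, had medians of -0.73, -1.03, -0.83 and -1.07, and the others lay between -0.62 and -0.41. Blocks were chosen as a description after the values were seen, and the counts are of RNA and hold no measure of DNA copy number.

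Other stretches of neighbouring genes moved together in line 1. The first 5 blocks of chromosome 3, from TRNT1 to ZNF621, had medians of 0.63 to 0.74, and -0.15 to 0.04 in line 2. The first 9 blocks of chromosome 11, from BET1L to SLC43A1, had medians of 0.44 to 0.72, and -0.24 to 0.08 in line 2. On chromosome 5, 3 blocks from KDM3B to ANXA6 had medians of 0.51 to 0.57, with line 2 between -0.05 and -0.02. On chromosome 20, 1 block from MGME1 to PYGB had a median of -0.83 with 20 of 25 genes called alike lower, and 0.01 in line 2. On chromosome 6, 2 blocks from ARMT1 to PDCD2 had -0.62 and -0.57, and on chromosome 18, 2 blocks from RAB27B to PARD6G had -0.52 and -0.61. On chromosome 4 the block from ARAP2 to LIMCH1 had -0.72, and here line 2 was low as well, at -0.48. On chromosome 1 the block from RCC1 to CCDC28B had 0.43, and line 2 was high there too, at 0.54. In all, 37 of 485 blocks lay at or under -0.4 and 25 at or over 0.4 in line 1. In line 2 the counts were 26 and 18. The line 1 blocks held 30.6% of the alike lower and 29.4% of the alike higher genes placed in blocks. They held 7.64% and 5.18% of all genes in blocks. These blocks were picked by the same fold changes that define the alike genes, so such an excess was nearly fixed in advance. The remaining alike genes lay in other blocks, CTNNB1 among them (block median 0.01).

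**Figure D2:**
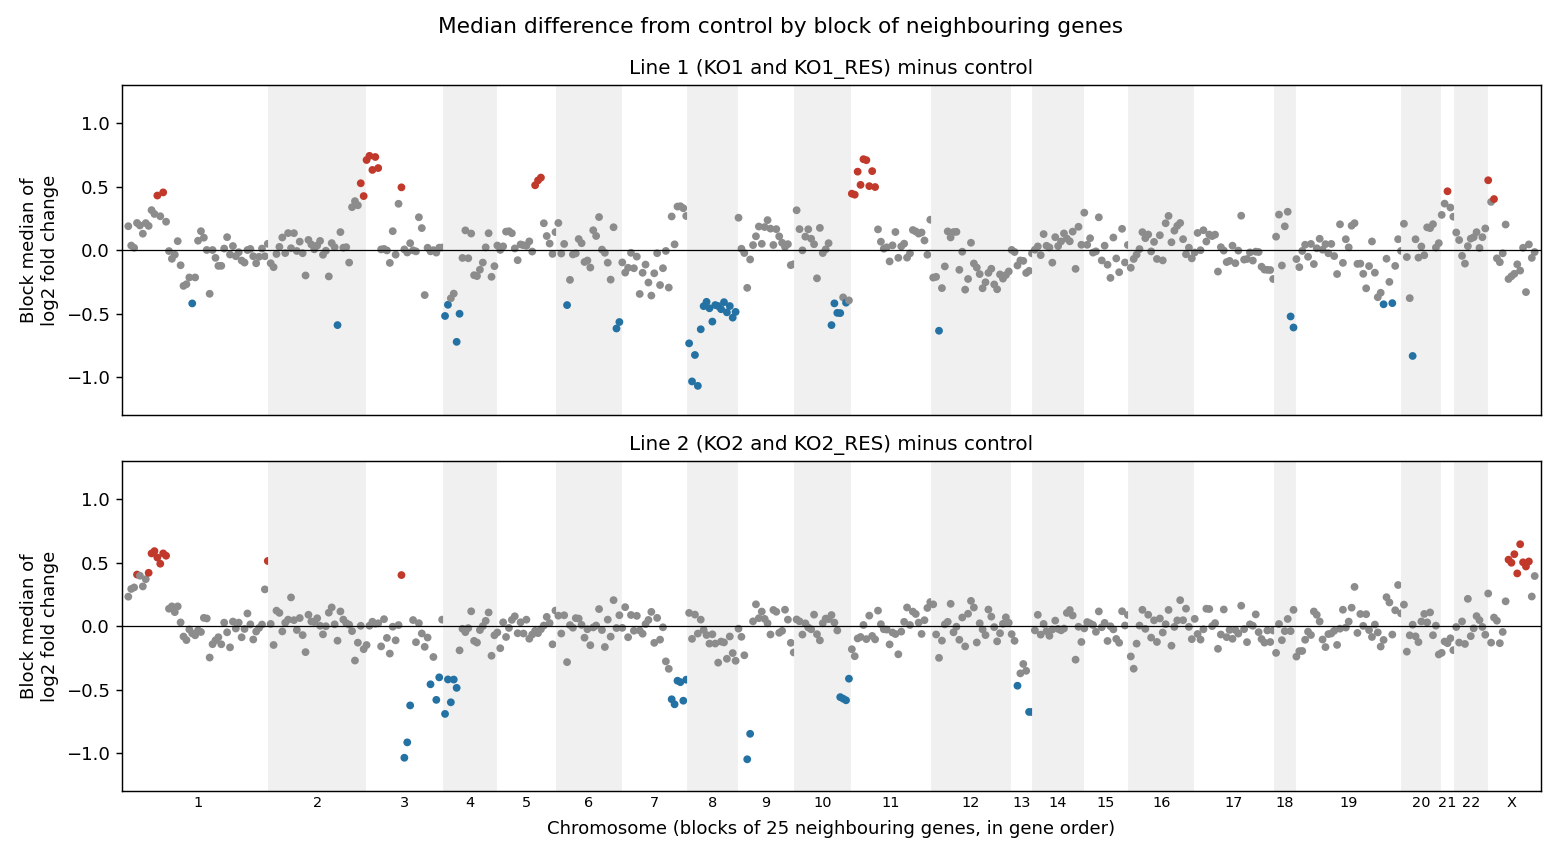
Median log2 fold change against control for each block of 25 neighbouring protein-coding genes, in gene order along the chromosomes, for line 1 (above) and line 2 (below). Blue points lie at or under -0.4 and red points at or over 0.4. In line 1 all 17 blocks of chromosome 8 are blue and the starts of chromosomes 3 and 11 are red, and neither pattern is there in line 2.

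Most of the genes with the widest gaps between line 1 and control were under 1 CPM on one side, CFTR and SH3BGR being the exceptions. By a rule, the 12 lower and 12 higher genes with the widest gap between the nearest line 1 and control libraries are named. Their promoters differed widely in CpG content, as 4 RefSeq promoters (GRCh38.p14, 300 bases around the start, written 5′ to 3′ along the gene's strand, CpG in capitals) show: AADAC and CACNA2D1 for genes lower in line 1, PAGE5 and TMEM47 for genes higher.

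AADAC, chr3:151813866-151814165, plus strand, 2 CpG: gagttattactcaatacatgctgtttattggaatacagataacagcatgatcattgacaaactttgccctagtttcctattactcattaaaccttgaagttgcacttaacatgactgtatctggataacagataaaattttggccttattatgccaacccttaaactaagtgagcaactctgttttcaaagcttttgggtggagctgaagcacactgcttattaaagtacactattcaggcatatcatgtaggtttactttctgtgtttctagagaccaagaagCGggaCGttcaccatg
CACNA2D1, chr7:82443907-82444206, minus strand, 29 CpG: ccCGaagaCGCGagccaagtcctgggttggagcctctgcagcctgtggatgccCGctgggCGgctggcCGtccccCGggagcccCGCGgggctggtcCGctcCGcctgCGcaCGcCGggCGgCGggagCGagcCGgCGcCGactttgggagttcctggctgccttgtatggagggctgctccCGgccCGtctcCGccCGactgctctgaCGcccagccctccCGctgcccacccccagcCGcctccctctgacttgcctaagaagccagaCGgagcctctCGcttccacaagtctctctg
PAGE5, chrX:55220096-55220395, plus strand, 10 CpG: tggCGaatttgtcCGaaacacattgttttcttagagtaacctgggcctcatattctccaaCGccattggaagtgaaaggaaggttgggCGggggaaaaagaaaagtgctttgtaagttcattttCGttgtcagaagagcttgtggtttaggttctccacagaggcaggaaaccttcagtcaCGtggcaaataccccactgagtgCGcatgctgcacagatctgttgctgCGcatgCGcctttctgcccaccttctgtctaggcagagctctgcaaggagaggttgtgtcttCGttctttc
TMEM47, chrX:34657236-34657535, minus strand, 45 CpG: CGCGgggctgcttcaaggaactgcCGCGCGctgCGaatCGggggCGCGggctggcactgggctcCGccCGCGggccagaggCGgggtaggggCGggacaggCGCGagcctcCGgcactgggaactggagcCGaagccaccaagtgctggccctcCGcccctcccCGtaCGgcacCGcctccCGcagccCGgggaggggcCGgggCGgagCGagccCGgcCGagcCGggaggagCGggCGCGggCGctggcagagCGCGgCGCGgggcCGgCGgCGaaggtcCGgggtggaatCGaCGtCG

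Over all 11497 tested protein-coding genes outside chromosome 8 with such a promoter, the median was 26 CpG (quartiles 16 and 34), and 9.43% had at most 5. Of 954 alike lower genes with a promoter 15.3% had at most 5, with a median of 25, and of 787 alike higher genes 8.39% had, with a median of 26. A CpG count says nothing of whether the site is methylated.

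Several transporters and an enzyme were nearly lost in line 1. AADAC, an arylacetamide deacetylase of the endoplasmic reticulum, had 0 counts in KO1 and in KO1_RES, and 9.33, 7.54, 2.02 and 2.11 CPM in control. Against a floor of 3 counts per library it was at least 80.3-fold lower in line 1 (adjusted p = 0.000195). Line 2 was below control too, at 0.411 to 0.772 CPM (log2 -3.31, adjusted p = 0.00544). ABCA8, a lipid transporter, had 3 counts in all 4 line 1 libraries together, at 0.032 and 0 CPM in KO1 and 0 and 0.0283 CPM in KO1_RES, against 45.3, 46.2, 29.1 and 34.5 CPM in control (adjusted p = 4.04e-07). Line 2 had nearly lost it as well, at 0.263 to 0.66 CPM (log2 -6.22 against control, adjusted p = 3.04e-06). SLC22A8, an organic anion transporter, was at 0.0196 to 0.048 CPM in line 1, no more than 3 counts per library, and at 8.57, 10.1, 4.2 and 6.58 CPM in control (adjusted p = 1.07e-06). It was low in line 2 also, at 0.0679 to 0.293 CPM (log2 -5.71 against control, adjusted p = 4.37e-06). ABCB1, the drug efflux pump P-glycoprotein, stood at 0.416 and 0.606 CPM in KO1 and 0.235 and 0.65 CPM in KO1_RES, against 28.7 to 36.6 CPM in control (log2 -6.12, SE 0.28, adjusted p = 4.78e-07). Line 2 held 16.5 to 22.6 CPM of ABCB1, and the lines differed (adjusted p = 1.15e-06). No line 1 library came near a control in any of these 4 genes.

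DSC2, a desmosomal cadherin, stood at 0.144 and 0.07 CPM in KO1 and 0.0196 and 0.0566 CPM in KO1_RES, against 23.2, 25.8, 71.8 and 63.8 CPM in control (log2 -9.47, SE 0.61, adjusted p = 3.85e-06). DSG4, a desmoglein from the same cluster on chromosome 18, had at most 2 counts per line 1 library and 4.03 to 5.93 CPM in control (adjusted p = 4.19e-06). Neither of them passed between line 1 and line 2 (adjusted p = 0.822 and 0.963), where both were also near 0. CDH6, a classical cadherin, had at most 2 counts per line 1 library, against 2.15, 2.26, 4.29 and 3.85 CPM in control (adjusted p = 2.91e-05), and 1.25 to 3.47 CPM in line 2. EPHA5, a receptor for membrane-bound ephrins, had at most 3 counts per line 1 library and 2.72 to 12.1 CPM in control (adjusted p = 5.06e-05). EYA4, a phosphatase and transcriptional cofactor, stood at 0.512 and 0.606 CPM in KO1 and 0.176 and 0.198 CPM in KO1_RES, against 24.3 to 37.5 CPM in control (log2 -6.57, SE 0.21, adjusted p = 3.96e-08). Line 2 did not pass against control in CDH6, EPHA5 or EYA4, and the lines differed in each (adjusted p = 4.48e-05, 3.11e-05 and 3.72e-08).

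The zinc finger gene ZNF704, on chromosome 8, had the smallest adjusted p of the named genes. It stood at 0.08 and 0.0466 CPM in KO1 and 0.0391 and 0.0283 CPM in KO1_RES, against 44.6, 42.3, 36.4 and 39.8 CPM in control (log2 -9.67, SE 0.16, adjusted p = 2.35e-10). Line 2 was above control, at 92.1 to 118.3 CPM (log2 1.34, adjusted p = 1.23e-05). Its loss was far larger than the median of its block (-0.56). CACNA2D1, a calcium channel subunit also used as a marker of liver cancer stem cells, stood at 0.224 and 0.257 CPM in KO1 and 0.0391 and 0.0566 CPM in KO1_RES, against 27.1 to 37.2 CPM in control (log2 -8.20, SE 0.26, adjusted p = 3.96e-08). TFPI2, a secreted inhibitor of serine proteases, stood at 0.157 to 0.464 CPM in line 1 and 25.9 to 34.7 CPM in control (log2 -6.78, SE 0.34, adjusted p = 8.88e-07). Line 2 was low in both of these genes, though less so than line 1 (adjusted p = 0.000133 for CACNA2D1 and 0.00284 for TFPI2).

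**Figure D3:**
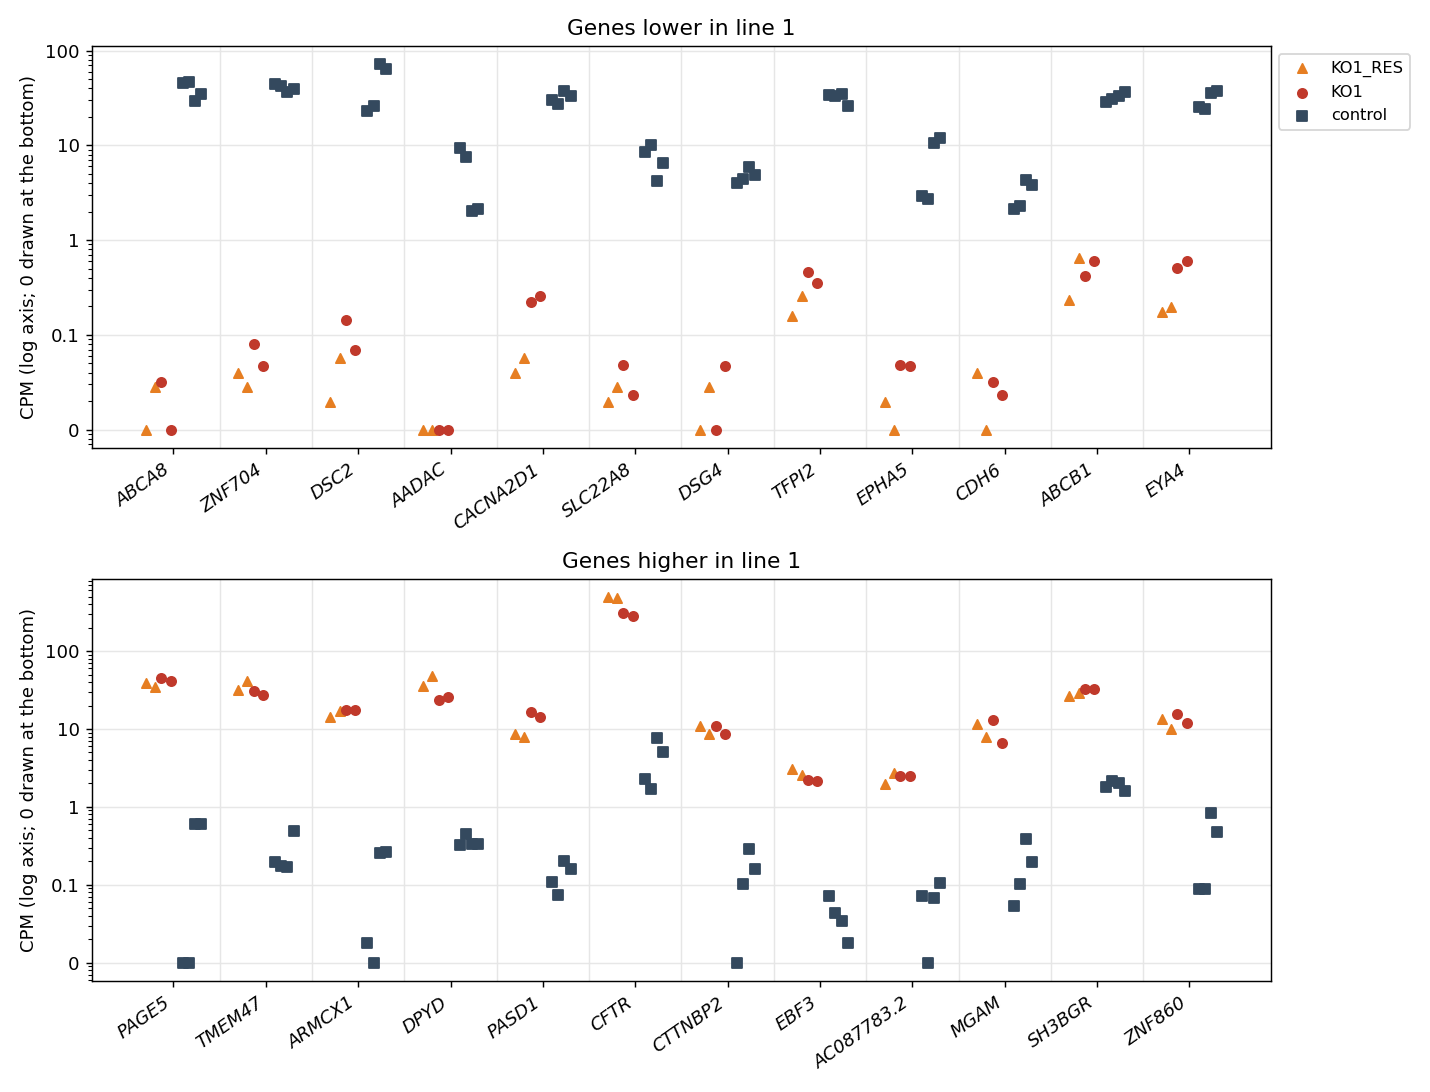
CPM on a log axis, with 0 drawn at the bottom, in each KO1_RES, KO1 and control library for the 12 lower genes (above) and the 12 higher genes (below) with the widest gap between line 1 and control. No line 1 library overlaps a control in any of the 24 genes, and CFTR reaches 283.4 to 490.2 CPM in line 1.

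Of the 12 genes gained with the widest gap, 4 are X-linked. Over the whole X chromosome 56 of 692 tested genes were called alike higher (8.09%, against 5.46% of all genes tested), and the median was -0.02. TMEM47, a junction-associated membrane protein, stood at 30.8 and 27.2 CPM in KO1 and 31.6 and 40.9 CPM in KO1_RES, against 0.197, 0.175, 0.169 and 0.497 CPM in control (log2 6.97, SE 0.35, adjusted p = 9.86e-07). PAGE5, a cancer-testis antigen of a family with near-identical copies, whose counts may be split among them, stood at 34.7 to 44.8 CPM in line 1, against 0, 0, 0.61 and 0.603 CPM in control (log2 7.05, SE 0.83, adjusted p = 0.000199). PASD1, another cancer-testis antigen, stood at 16.7 and 14.4 CPM in KO1 and 8.69 and 7.89 CPM in KO1_RES, against 0.073 to 0.203 CPM in control (adjusted p = 7.42e-06). ARMCX1, of an armadillo-repeat family tied to mitochondrial transport in neurons, stood at 14.5 to 17.6 CPM in line 1 and 0 to 0.266 CPM in control (adjusted p = 6.45e-05). Line 2 held 0.381 to 0.801 CPM of TMEM47 and 2.59 to 4.65 CPM of PAGE5, and line 1 was higher in each of these 4 genes (adjusted p between 1.57e-06 and 0.00281).

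CFTR, the chloride channel of bile duct and airway epithelium, reached the highest level among the gained genes. It stood at 309.3 and 283.4 CPM in KO1 and 490.2 and 486.3 CPM in KO1_RES, against 2.31, 1.71, 7.69 and 5.05 CPM in control (log2 6.51, SE 0.48, adjusted p = 9.75e-06). CTTNBP2, its neighbour on chromosome 7 and a cortactin-binding protein, stood at 8.57 to 10.96 CPM in line 1 and 0 to 0.288 CPM in control (adjusted p = 5.32e-05). Line 2 was above control in both, at 21.2 to 49.2 CPM of CFTR and 0.769 to 1.23 CPM of CTTNBP2. DPYD, which starts the breakdown of pyrimidines and of fluorouracil, stood at 23.3 and 25.5 CPM in KO1 and 35.4 and 48.4 CPM in KO1_RES, against 0.322 to 0.453 CPM in control (log2 6.44, SE 0.18, adjusted p = 2.15e-08). MGAM, an intestinal maltase, stood at 6.55 to 12.9 CPM in line 1 and 0.0537 to 0.39 CPM in control (adjusted p = 4.04e-05). EBF3, a developmental transcription factor, stood at 2.15 to 3.09 CPM in line 1 and at 0.0177 to 0.0716 CPM in control (adjusted p = 1.56e-06). SH3BGR on chromosome 21 stood at 26.2 to 33.0 CPM in line 1 and 1.61 to 2.15 CPM in control, with 1.25 to 3.2 CPM in line 2. ZNF860 stood at 9.87 to 15.7 CPM in line 1 and 0.0876 to 0.83 CPM in control, in a block of chromosome 3 with a median of 0.73. The 12th gene, AC087783.2, annotated as a processed pseudogene on chromosome 11, stood at 1.98 to 2.69 CPM in line 1 and 0 to 0.106 CPM in control.

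For plasma proteins of the liver, the counts depended on which controls line 1 was set against, since the controls were themselves split. Of 27 tested secreted liver proteins 6 were called alike lower and none higher (backgrounds 7.3% and 5.46%), with a median log2 fold change of -1.06. That median was -1.38 against controls 1 and 2, with 16 called alike lower and 0 higher, and 0.09 against controls 3 and 4, with 4 lower and 7 higher. Apolipoproteins (3 of 14 alike lower) had a median of -1.3, which was -1.88 and 0.16 against the 2 pairs, where 7 and 2 were lower and 0 and 1 higher. Coagulation and complement genes (6 of 30 lower, 1 higher) had a median of -1.06, which was -1.40 and 0.24 against the pairs, where 17 and 4 were lower and 2 and 4 higher. Albumin, ALB, named after its values were seen, shows the split: 28.1 and 24.8 CPM in KO1 and 49.4 and 63.0 CPM in KO1_RES, against 906.9, 822.5, 23.1 and 28.2 CPM in control. It was called in neither KO1 nor KO1_RES. TTR and GC, which carry thyroxine and vitamin D, were lower than every control even so. GC stood at 0.112 and 0 CPM in KO1 and 0.117 and 0.141 CPM in KO1_RES, against 41.7, 36.5, 5.79 and 6.08 CPM in control (adjusted p = 0.000204), and TTR at 0 to 0.16 CPM in line 1, against 34.1, 33.0, 2.74 and 1.6 CPM in control. FGL1, a hepatocyte-secreted fibrinogen-like protein on chromosome 8, stood at 6.55 to 11.3 CPM in line 1 and 40.4 to 118.8 CPM in control (log2 -3.25, SE 0.38, adjusted p = 0.000196). APOH, which binds phospholipids, stood at 32.1 to 39.5 CPM in line 1 and 63.2 to 192.6 CPM in control (log2 -1.85, adjusted p = 0.00369). The hepatic lipase LIPC, at 16.4 ± 7.13 CPM in line 1 and 52.1 ± 18.9 CPM in control (SD, n = 4 each; adjusted p = 0.00518), was not called alike against controls 3 and 4 alone.

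Against these falls, APOB, the structural protein of VLDL, named after its values were seen, stood at 10430 and 21510 CPM in KO1 and 13670 and 27620 CPM in KO1_RES, against 4821 to 6897 CPM in control. All line 1 libraries were above all controls, yet KO1 alone missed the threshold (adjusted p = 0.0597). Line 2 stood at 20.2 to 114.4 CPM of APOB, and the lines differed by 8.47 on the log2 scale (adjusted p = 4.07e-06).

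Among hepatocyte transcription factors 4 of 22 were called alike lower and 2 higher, and the median was 0.02. PROX1, a homeobox factor of liver and lymphatic development, stood at 154.3 and 179.7 CPM in KO1 and 221.5 and 216.9 CPM in KO1_RES, against 99.9 to 123.1 CPM in control (log2 0.76, SE 0.11, adjusted p = 0.000884). CREB3L3, a membrane-bound factor of hepatic lipid metabolism, stood at 10.1 to 20.5 CPM in line 1 and 28.2 to 40.2 CPM in control (log2 -1.23, adjusted p = 0.00148), with line 2 at 36.7 to 70.8 CPM. Of 44 hepatic enzymes 7 were called alike lower and 2 higher. Against controls 1 and 2 alone 14 were lower and 3 higher, and against controls 3 and 4 alone 6 were lower and 5 higher. FMO5, a flavin monooxygenase, stood at 10.6 to 22.7 CPM in line 1 and 71.2 to 139.6 CPM in control (log2 -2.71, SE 0.32, adjusted p = 0.0002). UGT2B7, which glucuronidates steroids and drugs and has close copies in the same cluster, stood at 0.08 to 0.424 CPM in line 1 and 4.88 to 6.15 CPM in control (log2 -5.11, adjusted p = 3.05e-06). Hepatic transporters had 6 of 22 lower, ABCA8, SLC22A8 and ABCB1 among them, and 1 higher. This list too turned with the controls. Its median was -0.96 against controls 1 and 2, with 10 lower and 3 higher, and 0.09 against controls 3 and 4, with 6 lower and 5 higher.

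Desmosome genes had the highest share of falls among the epithelial lists. Of 10 tested members 4 were called alike lower and 1 higher, and the median was -1.46 (-0.98 and -1.80 against the 2 pairs of controls). Besides DSC2 and DSG4, DSG2, the desmoglein of simple epithelia, stood at 2.35 and 1.84 CPM in KO1_RES, at 10.1 and 9.35 CPM in KO1, and at 97.7, 103.1, 115.9 and 142.1 CPM in control (log2 -4.66, SE 0.24, adjusted p = 9.86e-07). JUP, or plakoglobin, which links desmosomal cadherins to the cytoskeleton and was named after its values were seen, stood at 26.8 to 39.7 CPM in line 1 and 105.1 to 259.4 CPM in control (adjusted p = 0.000189). Of 32 cadherins and tight junction genes 6 were lower and 2 higher. TJP3, a scaffold of tight junctions, stood at 2.64 and 2.63 CPM in KO1_RES, at 7.96 and 8.37 CPM in KO1, and at 22.7 to 31.2 CPM in control (log2 -2.47, SE 0.17, adjusted p = 6.14e-06). DSG2 and TJP3 were thus lower in both, and lower in KO1_RES than in KO1.

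Of 46 integrin and matrix genes 8 were called alike lower and 2 higher, with a median of -0.55. COL5A2, a fibrillar collagen chain, stood at 3.17 and 2.43 CPM in KO1 and 1.41 and 0.905 CPM in KO1_RES, against 311.0, 327.0, 90.5 and 101.5 CPM in control (log2 -6.83, SE 0.52, adjusted p = 1.19e-05). COL4A5, a basement membrane collagen chain, stood at 0.763 to 1.75 CPM in line 1 and 20.99 to 44.2 CPM in control (log2 -5.06, adjusted p = 2e-05). PLOD2, which hydroxylates collagen lysines and belongs to the hypoxia list, stood at 3.58 to 7.58 CPM in line 1, against 143.4, 144.6, 30.5 and 38.7 CPM in control (log2 -4.06, adjusted p = 0.000503). Line 2 stood at 44.1 to 79.4 CPM of PLOD2 and 49.6 to 63.1 CPM of COL5A2, and the lines differed in both. For COL5A2 line 2 was also lower than control (log2 -1.89, adjusted p = 0.0098). Among mesenchymal factors 2 of 14 rose and 1 fell. TAGLN, an actin-binding protein of smooth muscle, stood at 55.9 and 25.9 CPM in KO1 and 74.5 and 34.9 CPM in KO1_RES, against 5.17 to 13.8 CPM in control (log2 2.48, adjusted p = 0.00157), and TWIST2, a basic helix-loop-helix factor, at 2.77 to 4.21 CPM in line 1 and 0.966 to 1.67 CPM in control (log2 1.47, adjusted p = 0.000775).

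Of 9 fibroblast markers, 2 averaged at least 1 CPM in line 1 and 4 in control, and their sum was 5.03 to 7.28 CPM in line 1 and 7.1 to 12.1 CPM in control. COL3A1 (0.0391 to 0.208 CPM in line 1, 1.07 to 4.47 CPM in control) and LUM (0 to 0.352 CPM in line 1, 0.932 to 2.67 CPM in control) were called alike lower, on 7 tested members. Blood cell markers summed to 330.7 to 744.9 CPM in line 1 and 334.8 to 923.3 CPM in control, nearly all of it the lysozyme gene LYZ (502.7 CPM on average in line 1 and 625.7 CPM in control), with PTPRC and CD3E averaging under 0.1 CPM. Endothelial markers summed to 0.396 to 0.746 CPM in line 1 and 0.525 to 2.02 CPM in control, with KDR at 0 counts in all 8 libraries. In bulk RNA, fewer cells of a type and less RNA per cell cannot be told apart.

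CTNNB1, which encodes beta-catenin, stood at 0.484 of the control mean in line 1. It stood at 288.8 and 248.1 CPM in KO1 and 233.8 and 213.5 CPM in KO1_RES, against 501.9, 465.6, 558.2 and 508.2 CPM in control (log2 -1.05, SE 0.18, adjusted p = 0.00164). The groups did not overlap, and the values held against each pair of controls. Line 2 stood at 241.1 to 501.5 CPM and did not pass against control (adjusted p = 0.233), and line 1 was lower than line 2 (log2 -0.73, adjusted p = 0.0115). Of 48 Wnt components and targets 5 were called alike lower and 1 higher, with a median of -0.38 (-0.34 and -0.35 against the pairs). The share called alike was 12.5%, near the 12.8% of all genes tested. CSNK1A1, the kinase that primes beta-catenin for degradation, was the 1 higher, at 145.9 to 170.8 CPM in line 1 and 81.7 to 84.9 CPM in control (log2 0.89, SE 0.09, adjusted p = 6.28e-05), in a block of chromosome 5 with a median of 0.57. ZNRF3, which removes Wnt receptors from the surface and is itself a target, stood at 24.0 to 29.1 CPM in line 1 and 42.7 to 48.1 CPM in control (log2 -0.76, adjusted p = 0.000888). The targets LGR5 and TBX3, named after their values were seen, stood at 3.22 to 7.09 and 8.96 to 20.6 CPM in line 1, against 13.6 to 33.6 and 41.6 to 150.9 CPM in control.

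Of 19 liver cancer stem cell markers 6 were called alike lower and 1 higher. Their median was -0.44 against all controls, 0.40 against controls 1 and 2 and -0.50 against controls 3 and 4, so the sign of the median turned with the controls. ALDH1A1, a retinal dehydrogenase, stood at 1316 to 1482 CPM in line 1 and 2486 to 3115 CPM in control (log2 -1.05, SE 0.14, adjusted p = 0.000463). The higher gene was EPCAM, a surface adhesion molecule named after its values were seen, at 9.87 to 18.4 CPM in line 1 and 1.31 to 4.62 CPM in control (adjusted p = 0.000977). Line 2 stood higher still, at 35.7 to 40.1 CPM. Biliary and progenitor markers had 6 of 22 lower and 3 higher, with CFTR among the higher, and TSPAN8, a tetraspanin, at 13.5 to 21.3 CPM in line 1 and 67.2 to 82.5 CPM in control (log2 -2.01, adjusted p = 3.47e-05).

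In signalling pathways the members named by the rule, which takes alike genes with the smallest adjusted p, fell, and they do not stand for their lists. The TGF-beta and BMP list had 20 positive and 20 negative fold changes and a median of -0.01. The median was -0.28 for receptor tyrosine kinases and their ligands. Over all genes tested 7.3% were called alike lower and 5.46% higher. Of 40 TGF-beta and BMP genes 7 were lower and 3 higher: FST, or follistatin, which binds activins, stood at 91.0 to 121.2 CPM in line 1 and 460.6 to 566.7 CPM in control (log2 -2.33, SE 0.12, adjusted p = 8.88e-07), and LTBP1, which holds latent TGF-beta in the matrix, stood at 64.4 to 75.8 CPM in line 1 and 136.7 to 161.4 CPM in control. Of 22 YAP/TAZ targets 6 were lower and none higher, with a median of -0.21 (-0.06 and -0.38 against the pairs). CRIM1, a membrane protein that binds BMPs, stood at 26.1 to 42.8 CPM in line 1 and 200.4 to 358.1 CPM in control (log2 -3.02, SE 0.22, adjusted p = 7.49e-06), with line 2 at 254.2 to 341.4 CPM. DLC1, a GTPase-activating protein in the lowest stretch of chromosome 8, stood at 28.3 to 39.0 CPM in line 1 and 66.2 to 78.4 CPM in control (log2 -1.10, block median -1.03). Receptor tyrosine kinases and their ligands had 8 of 54 lower and 3 higher, with ERBB2 at 55.5 to 65.8 CPM in line 1 and 114.8 to 131.2 CPM in control (log2 -1.04, SE 0.08, adjusted p = 1.8e-05). The receptor for insulin-like growth factors, IGF1R, named after its values were seen, was higher, at 77.4 to 106.1 CPM in line 1 and 16.3 to 46.7 CPM in control (adjusted p = 0.00348).

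Chemokines and NF-kB targets had 5 of 36 higher and 2 lower. IL17D, a cytokine of the interleukin 17 family, stood at 9.75 and 14.1 CPM in KO1 and 2.74 and 6.64 CPM in KO1_RES, against 0.142 to 0.448 CPM in control (log2 4.58, SE 0.45, adjusted p = 6.95e-05). CXCL12, the ligand of CXCR4, stood at 5.15 to 7.91 CPM in line 1 and 25.2 to 34.1 CPM in control (log2 -2.11, SE 0.13, adjusted p = 3.65e-06). Interferon and antigen presentation genes had 2 of 31 in each direction, near the background. HLA-DMA, of the class II antigen loading machinery, stood at 0.0391 to 0.187 CPM in line 1 and 0.678 to 0.816 CPM in control.

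Of 34 glycolysis genes 2 were called alike higher and 3 lower, with a median of 0.01. The share called alike was 14.7%, near the 12.8% of all genes tested. SLC2A3, the glucose transporter GLUT3, stood at 41.5 and 40.1 CPM in KO1 and 40.1 and 31.6 CPM in KO1_RES, against 410.1, 413.2, 299.7 and 247.3 CPM in control (log2 -3.16, SE 0.21, adjusted p = 4.92e-06). Line 2 stood above control, at 491.7 to 756.1 CPM. PFKFB2, which makes the activator of phosphofructokinase, stood at 70.02 to 82.1 CPM in line 1 and 41.5 to 45.4 CPM in control (log2 0.84, SE 0.09, adjusted p = 0.000116). Of 30 hypoxia response genes 7 were lower and none higher, with a median of -0.40 (-0.71 and -0.10 against the pairs). ERO1A, an oxidase of protein disulfide formation, stood at 198.9 to 221.0 CPM in line 1 and 312.7 to 337.4 CPM in control (log2 -0.60, SE 0.08, adjusted p = 0.000565). Genes encoded in the mitochondrial genome stood below control on average in all 13 cases, with a median of -0.71 (-1.18 and -0.10 against the pairs), and none was called alike against all 4 controls. Against controls 1 and 2 alone all 13 were called alike lower, and against controls 3 and 4 alone 0 were.

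Lipid genes were mixed. PPARGC1A, the coactivator PGC-1alpha that drives mitochondrial and gluconeogenic genes, stood at 100.9 and 120.6 CPM in KO1 and 102.8 and 136.0 CPM in KO1_RES, against 18.6, 16.4, 22.9 and 23.5 CPM in control (log2 2.50, SE 0.18, adjusted p = 6.79e-06). Line 2 stayed at 17.8 to 26.7 CPM, and the lines differed (adjusted p = 8.11e-06). CIDEB, a lipid droplet and VLDL protein, stood at 0.56 to 1.44 CPM in line 1 and 5.14 to 7.25 CPM in control (log2 -2.86, adjusted p = 1.1e-05). In all 7 of 40 fatty acid metabolism genes were lower and 2 higher. Of 31 genes of cholesterol synthesis and sterol handling 5 were lower and none higher. Against controls 1 and 2 alone 14 were lower and 1 higher, and against controls 3 and 4 alone 2 were lower and 2 higher. FDFT1, or squalene synthase, which lies on chromosome 8, stood at 62.3 to 79.0 CPM in line 1 and 139.1 to 195.9 CPM in control (log2 -1.21, block median -0.73). TM7SF2, a sterol reductase, stood at 42.0 to 56.9 CPM in line 1 and 73.3 to 111.7 CPM in control, and was not called alike against controls 3 and 4 alone.

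Of 35 ATF4 stress response genes 30 had positive fold changes and 6 were called alike higher, none lower, with a median of 0.58 (0.58 and 0.81 against the pairs). CARS1, the cysteinyl-tRNA synthetase, stood at 209.3 and 219.2 CPM in KO1 and 155.5 and 210.7 CPM in KO1_RES, against 77.7 to 111.6 CPM in control (log2 1.05, SE 0.14, adjusted p = 0.00035), in a block of chromosome 11 with a median of 0.44. ATF5 stood at 34.1 to 64.0 CPM in line 1 and 22.9 to 30.2 CPM in control, and was called alike against neither pair alone. Folding genes of the endoplasmic reticulum had 5 of 23 lower and 1 higher, with a median of -0.48. HSP90B1, the chaperone GRP94, stood at 1081 to 1217 CPM in line 1 and 1982 to 2494 CPM in control (log2 -0.97, SE 0.12, adjusted p = 0.000293). The higher gene was EDEM1, which hands misfolded glycoproteins to degradation, at 244.3 to 337.4 CPM in line 1 and 141.7 to 161.9 CPM in control (log2 0.92, adjusted p = 0.000837), in the first block of chromosome 3 with a median of 0.71. Of 16 heat shock genes 2 were lower, a share of 12.5% called alike, near the 12.8% of all genes tested. They were HSPA2 at 32.2 to 42.5 CPM in line 1 and 84.4 to 150.6 CPM in control, and the co-chaperone BAG3 at 24.7 to 30.3 CPM in line 1 and 37.0 to 49.2 CPM in control. NRF2 targets had 1 of 29 higher and 2 lower, a share of 10.3% called alike, under that of all genes. Among these were HMOX1, or heme oxygenase, at 135.9 to 264.6 CPM in line 1 and 80.6 to 100.2 CPM in control (log2 1.3, adjusted p = 0.000514), and the glutathione transferase GSTA4 at 20.2 to 27.1 CPM in line 1 and 42.8 to 53.8 CPM in control.

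Cell cycle and p53 genes gave counts under the background. Of 48 cell cycle genes 1 was called alike lower and none higher, with a median of -0.23, and of 21 p53 targets 1 was higher. The cell cycle gene was CDK2, the kinase of S phase entry, at 59.4 to 72.2 CPM in line 1 and 86.0 to 104.4 CPM in control (log2 -0.53, SE 0.12, adjusted p = 0.00683), called alike against neither pair alone. The p53 target was XPC, a DNA damage sensor, at 55.2 to 60.5 CPM in line 1 and 35.8 to 38.5 CPM in control (log2 0.61, SE 0.09, adjusted p = 0.000617), in a block of chromosome 3 with a median of 0.74.

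Of 30 tested cancer-testis antigens 8 were called alike higher and none lower (background 5.46% higher), with a median of 0.44, and PAGE5 and PASD1 reached the highest levels. Several of them, like PAGE5, belong to families with near-identical copies. HOX genes had 5 of 34 higher and none lower against all 4 controls, 7 higher and 8 lower against controls 1 and 2, and 9 higher and 0 lower against controls 3 and 4. HOXB6 stood at 14.4 and 11.8 CPM in KO1 and 10.1 and 9.39 CPM in KO1_RES, against 2.09 to 3.51 CPM in control (log2 2.02, SE 0.20, adjusted p = 6.81e-05), and HOXB7 at 11.1 to 12.97 CPM in line 1 and 3.99 to 4.32 CPM in control (log2 1.55, SE 0.12, adjusted p = 1.05e-05). The median of the HOX list was 0.08, and it was -0.22 against controls 1 and 2 and 0.60 against controls 3 and 4. Of 25 oncofetal and imprinted genes 2 were higher and 3 lower. PLAGL1, an imprinted zinc finger factor, stood at 5.46 to 6.58 CPM in line 1 and 20.7 to 27.4 CPM in control (log2 -2.05, SE 0.12, adjusted p = 2.1e-06), with line 2 at 23.5 to 28.6 CPM. DIO3OS, a noncoding RNA of the imprinted DLK1-DIO3 region, stood at 1.7 and 1.0 CPM in KO1 and 0.685 and 0.311 CPM in KO1_RES, with 1 count in control 1 and 0 in the other controls. Ion channel subunits had 4 of 48 higher and 6 lower, with CFTR and CACNA2D1 at the ends.

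**Figure D4:**
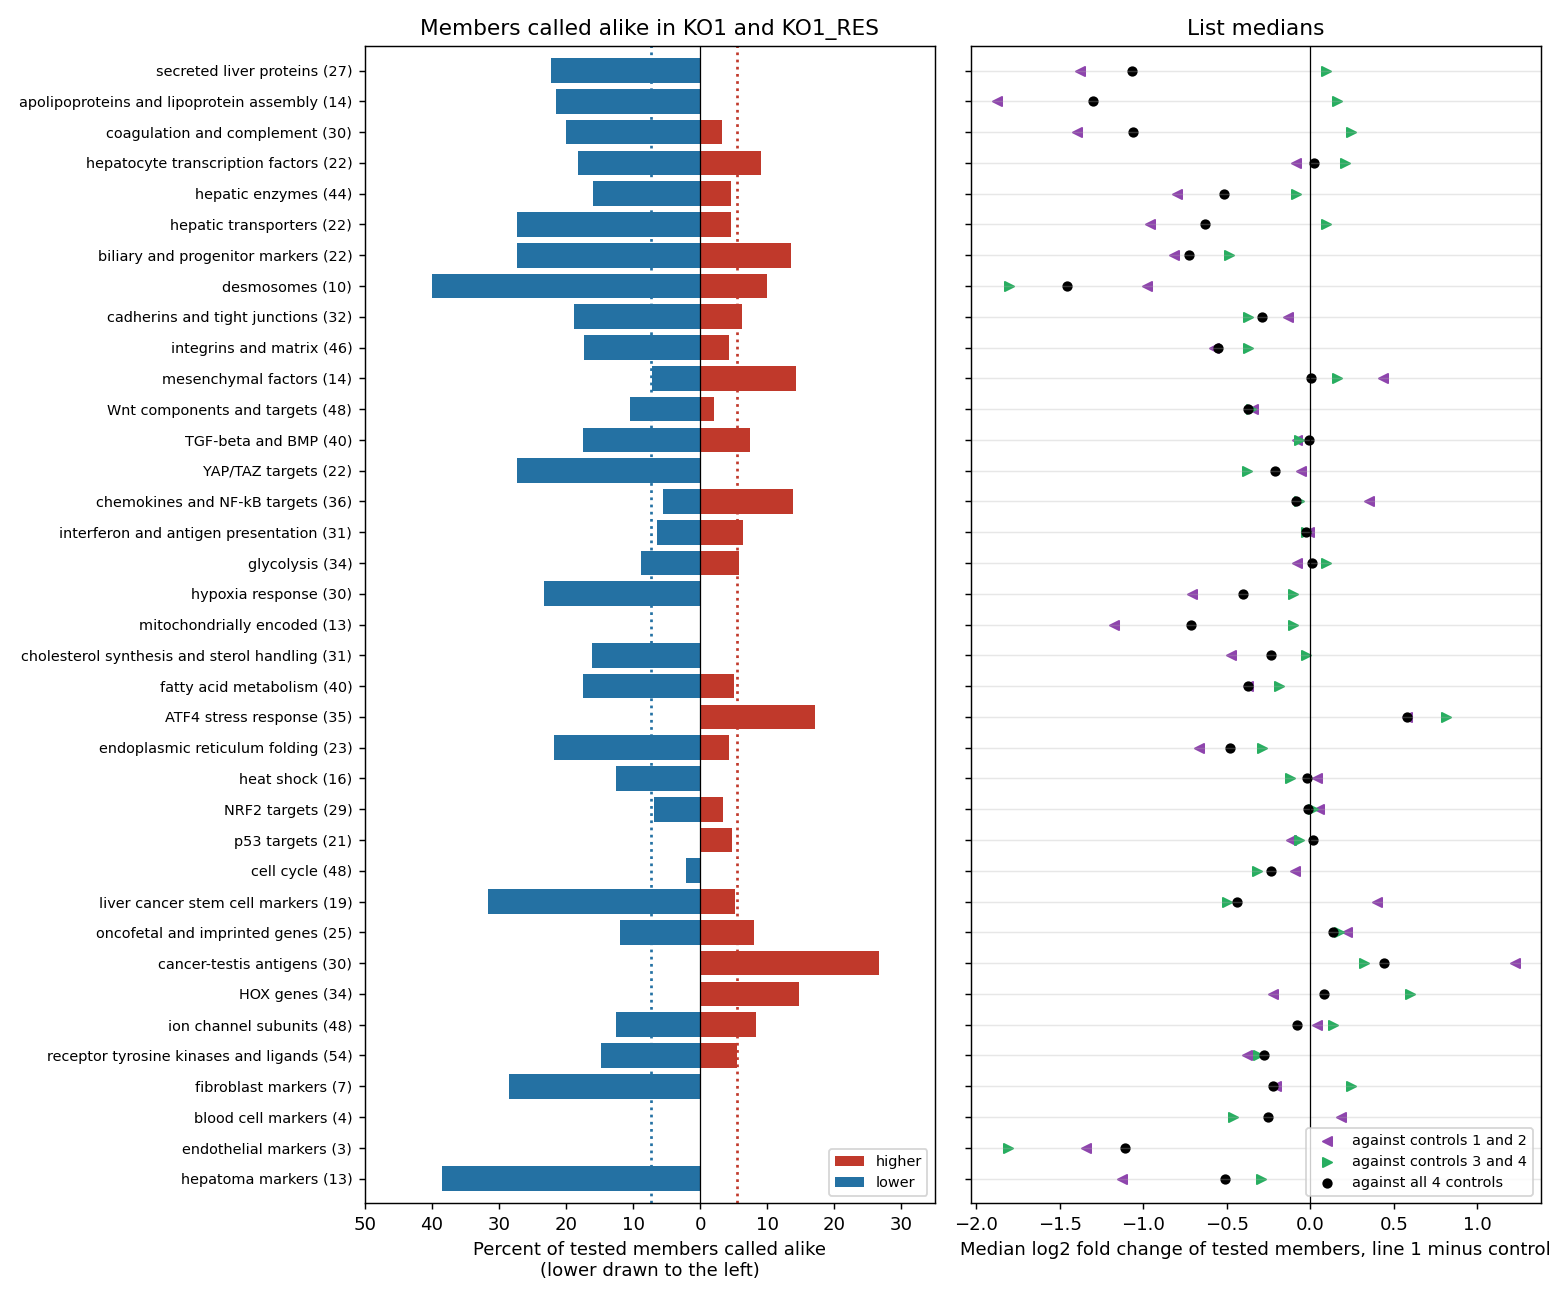
Left, the percent of tested members of each list (number in brackets) called alike lower (blue, to the left) or higher (red, to the right) in line 1, with the share over all genes as dotted lines (7.3% lower and 5.46% higher). Right, the median log2 fold change of each list against all 4 controls, against controls 1 and 2 and against controls 3 and 4. The secreted liver protein, apolipoprotein and coagulation lists change sign between the control pairs, and the desmosome, Wnt and ATF4 lists do not.

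The count of genes that differed between the rescue and the knockout libraries of line 1 depended on the fit and on single libraries. It was 40 in edgeR and 217 in DESeq2. It was 1 without KO1_1, 11 without KO1_2, 3 without KO1_RES_1, 2 without KO1_RES_2 and 15 and 18 without control 1 or 2. Without KO2_1 or KO2_2, which enter only through the shared spread, it was 13 and 18. Of the 40, 8 were higher (0.0389% of genes tested) and 32 lower (0.156%), and HKDC1 was among the higher. Among them 20 were also called alike against control, 18 lower and 2 higher. Of those 18, 17 were lower still in KO1_RES than in KO1, so the rescue libraries stood further from control, and 1, NECTIN3, was closer to it. Genes back at the control level in KO1_RES could not enter this count, since being called alike required a difference there. CDH2, named after its values were seen, was such a gene, at 124.7 and 123.1 CPM in KO1_RES, 58.5 and 52.5 CPM in KO1 and 123.3 to 149.2 CPM in control. CDH17, named likewise, was called lower in KO1_RES and not in KO1. NECTIN3, a nectin of cell junctions, stood at 6.56 and 6.5 CPM in KO1_RES, at 1.36 and 1.56 CPM in KO1, and at 22.4 to 34.3 CPM in control. AGR2, a secretory disulfide isomerase, stood at 15.5 and 10.6 CPM in KO1_RES, at 50.7 and 64.1 CPM in KO1, and at 144.7 to 223.4 CPM in control (KO1_RES against KO1, log2 -2.13, adjusted p = 0.0184). NRP2, a co-receptor of semaphorins and VEGF, stood at 0.352 and 0.255 CPM in KO1_RES, at 2.06 and 1.7 CPM in KO1, and at 5.47 to 7.91 CPM in control. NECTIN3, AGR2 and NRP2 were also named after their values were seen. For DSG2 the difference between KO1_RES and KO1 was -2.21 and for TJP3 -1.63 on the log2 scale (adjusted p = 0.0288 for both). By the genotype field in place of the title, this comparison gave 0 calls in edgeR, 12 in DESeq2 and 1343 genes at an unadjusted p under 0.05 in edgeR.

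Line 1 also differed from line 2 in most of these genes. Of the 2623 genes called alike, 1821 were called between line 1 and line 2 in the same fit, where 26.9% of all genes tested were. Of the 1122 higher genes 760 were higher in line 1 than in line 2 and 16 lower, where 12.3% of all genes tested were higher. Of the 1501 lower genes 1013 were lower in line 1 than in line 2 and 32 higher, where 14.6% of all genes tested were lower. The same line 1 libraries picked these genes and enter the comparison of lines. Shares above those over all genes are therefore expected from the selection. Line 2 against control gave calls in 17.3% of genes, and the mean of line 1 against control, whose fold changes are given throughout, in 26.9%. ABCB1, CDH6, EPHA5, EYA4, SLC2A3, CRIM1, PLAGL1, SH3BGR, PPARGC1A and TMEM47 were among those that differed between the lines. DSC2, DSG4, FMO5, IL17D and HMOX1 were changed in line 1 and did not pass between the lines.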

How the data were processed

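RNA of 12 libraries was sequenced. Per the submitters' processing notes the authors used STAR 2.6.0b with GRCh37, and the deposited files hold raw read counts for 57820 genes in each library. The reverse-strand column was used. Genes without a symbol held 4.84% of counts. Members and gene lists were chosen with earlier results of these data known.

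Counts were scaled by TMM and tested with edgeR 4.0.16 (R 4.3.3; quasi-likelihood test, Benjamini-Hochberg adjustment) in 1 fit of 5 groups over 12 libraries and 20559 genes kept by filterByExpr. DESeq2 1.42.0 was an alternative, and the procedure was tested on simulated data. A floor of 3 counts is 0.0438 to 0.0848 CPM in these 8 libraries and covers counting error only, since reads carry no molecular identifiers. Standard errors are of log2 fold changes.

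Named genes are the 12 higher and 12 lower alike genes with the widest gap and a mean of at least 2 CPM in line 1 or control, up to 2 alike members of each of 37 lists by smallest adjusted p, and the hexokinases and CTNNB1, 82 in all with a test. A few of them are not reported here. Genes outside this rule are said to be named after their values were seen, or are markers. Symbols, chromosomes and gene order came from annotation tables of another build, so no gene coordinates of the files are given, and promoters are RefSeq's.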

Additional observations from a re-analysis of the deposited data

Results flagged for a closer look

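Single libraries that stood apart were looked for in line 1 and in control for the 82 named genes. Chance alone flags about 1 of 20 groups, so several flags are expected. In 10 named genes a single library stood apart within its own group of 4. Among the line 1 libraries these were BAG3 at 30.28 CPM in KO1_1, CARS1 at 155.5 CPM in KO1_RES_1, COL4A5 at 1.749 CPM in KO1_2, ERO1A at 198.9 CPM in KO1_RES_1, SLC2A3 at 31.58 CPM in KO1_RES_2 and XPC at 60.48 CPM in KO1_RES_2. Among the controls they were DIO3OS at 0.0179 CPM and 1 count in control 1, DPYD at 0.4528 CPM in control 2, HK1 at 28.09 CPM in control 4 and TMEM47 at 0.4966 CPM in control 4.

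KO1_RES and KO1 differed by the test of their difference in 3 named genes, by 3.22 on the log2 scale in HKDC1, -2.21 in DSG2 and -1.63 in TJP3.

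Line 1 and line 2 differed by the test of their difference (edgeR, adjusted p under 0.05) in 59 named genes, and values for genes at or under 3 counts in line 1 (AADAC, ABCA8, CDH6, EPHA5 and SLC22A8) depend on the prior count and give no fold. In 35 genes line 1 was lower. The log2 difference was -11.01 for ZNF704, -8.40 for EPHA5, -7.91 for AADAC, -6.70 for EYA4, -6.18 for CDH6 and -5.38 for ABCB1. Next in size it was -5.00 for COL3A1, -4.94 for COL5A2, -4.93 for ABCA8, -4.48 for LUM, -3.94 for SLC2A3 and -3.82 for GC. Further values were -3.60 for PLOD2, -3.10 for CRIM1, -2.95 for COL4A5, -2.44 for CACNA2D1, -2.39 for UGT2B7 and -2.22 for PLAGL1. Smaller still were -2.14 for SLC22A8, -1.89 for CREB3L3, -1.82 for HLA-DMA, -1.74 for CXCL12, -1.73 for CIDEB and -1.72 for TFPI2. In turn it came to -1.45 for LIPC, -1.32 for HK2, -1.25 for TJP3, -1.15 for DLC1, -0.98 for FST and -0.97 for FDFT1. The smallest came to -0.91 for HSPA2, -0.73 for CTNNB1, -0.47 for CDK2, -0.44 for ALDH1A1 and -0.31 for ERBB2.

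In 24 genes line 1 was higher. The log2 difference here was 5.98 for TMEM47, 5.74 for AC087783.2, 4.13 for PASD1, 3.81 for SH3BGR and 3.73 for MGAM. After these it was 3.64 for PAGE5, 3.62 for CFTR, 3.48 for ARMCX1, 3.23 for CTTNBP2, 2.93 for TAGLN and 2.41 for PPARGC1A. Lower values were 2.02 for ZNF860, 1.72 for DPYD, 1.38 for DSG2, 1.22 for HOXB6, 1.20 for HKDC1 and 1.04 for TWIST2. Still lower were 0.94 for EDEM1, 0.91 for CSNK1A1, 0.87 for EBF3, 0.82 for XPC, 0.57 for CARS1 and 0.54 for HOXB7. The least came to 0.38 for PFKFB2.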

How the results depend on the processing

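Of the 2623 genes called alike, none was called alike with the opposite sign under any of 24 alternatives. Signs were compared only for genes still called alike there, which were 1792 against controls 3 and 4 alone and 377 under the fold threshold below. The counts moved by more than 1.5 times in these cases. When a change beyond 1 on the log2 scale was required (a fold threshold), calls were 505 in KO1, 668 in KO1_RES, 867 in the line 1 mean, 119 alike higher, 258 alike lower, 4 in KO1_RES against KO1 and 976 between the lines. That threshold left 31.6% of alike genes higher, against 42.8% in the main result. Alike higher genes were 1696 against controls 1 and 2 alone and 1882 with the control pairs as 2 groups. KO1_RES against KO1 gave 217 calls in DESeq2, 548 with no filter on low counts, 13 with only the 8 libraries and 0 by the genotype field. By that field HKDC1 in the line 1 mean against control was no longer called, at 2.31 (adjusted p = 0.0895) and 1.56 by the titles. The cause of these differences was not tested.

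Leaving out 1 library at a time gave 1265 to 4193 calls in KO1, 1333 to 4139 in KO1_RES, 3932 to 6018 in the line 1 mean, 456 to 1270 alike higher, 607 to 1659 alike lower, 1 to 40 in KO1_RES against KO1 and 3932 to 5729 between the lines. Without KO1_1, KO1_2, KO1_RES_1 or KO1_RES_2, alike genes numbered between 1110 and 1233, with the lone library of an arm assumed to vary like the other groups.

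Replicate numbers do not show a pairing by the labels. The differences of number 2 minus 1 correlated across genes at 0.508 between KO1 and KO1_RES, 0.699 between KO2 and KO2_RES, and 0.116 and 0.187 between control and KO1 or KO1_RES, a hint from the data and not the design. With the replicate block, calls were 7346 in KO1, 7237 in KO1_RES, 8478 in the line 1 mean, 2688 alike higher, 2927 alike lower, 609 in KO1_RES against KO1 and 8924 between the lines. A replicate block of the line libraries only gave 63 in KO1_RES against KO1.

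HK1 and HK2, not called in the line 1 mean against control, changed sign there. HK1 was 0.047 with the block, 0.033 against controls 1 and 2, and -0.15 to 0.039 without 1 library. HK2 was -0.061 with the block, -0.029 against controls 1 and 2, and -0.091 to 0.36 without 1 library. Of 80 named genes called in the line 1 mean, 52 stayed called under every alternative and 28 did not, 27 of them under the fold threshold and HKDC1 by the genotype field. List and chromosome medians moved by over 1 SD in 177 of 1440 values. With 2 libraries per arm, and controls that split into pairs, smaller changes are not detectable at this depth.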
